A study of Mus musculus with 24 samples.

Results

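The genes described here copy the DNA and carry out cell division. Of 44 genes listed for DNA replication and mitosis, 40 were on the arrays under a single gene symbol, out of 14807 genes in all. They fell into 20 replication genes and 20 mitosis genes. The other 4, Pcna, Rrm2, Ccnb1 and Cenpf, were not analysed here. The members were picked by symbol for their known roles, not by a measured value. Where a gene had several probe sets, which are the groups of array probes that together read a gene, the probe set with the highest mean over the 24 arrays was used.

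RNA came from digits of wild-type mice of 2 strains aged 3-4 months, C57BL/6 (B6), a common laboratory strain, and MRL/MpJ (MRL), a strain known for closing ear holes. Digits were taken unamputated (day 0) or 3, 7 and 14 days after surgical amputation, which gave 8 groups of 3 arrays. The labels call the arrays of a group biological replicates and give the tissue as second phalanx, from the middle digit of the hindlimb. The sources used here do not give whether an array holds the digits of 1 mouse or of several. The digit is a mixed tissue of skin, hair follicles, tendon, bone and blood cells, so more dividing cells and more RNA per dividing cell cannot be told apart.

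A cell that is about to divide first licenses its origins of replication: Cdc6 and Cdt1 help to load the ring of Mcm proteins, which becomes the replicative helicase once Cdc45 and the GINS complex join it. DNA polymerases then copy the strands from deoxynucleotides made by ribonucleotide reductase and thymidylate synthase. In mitosis, Cdk1 with its cyclins and the Aurora and Polo kinases drive spindle assembly, Bub1 and its partners watch the attachment of chromosomes, and Prc1 and its motors build the central spindle for cytokinesis. In resting skin such genes are known mainly from the basal epidermis and the hair matrix, and in a wound also from epithelium, stroma and expanding blood vessels.

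Levels are log2 intensities, differences are log2 differences with the moderated standard error (SE) of a limma fit over all 24 arrays, and a gene is called higher or lower where the p adjusted over 15928 probe sets is under 0.05. A log2 difference of 1 is a doubling. For 1 gene alone, an exact permutation of 3 against 3 arrays has 0.1 as its smallest p. Median intensities of the arrays lay between 141 and 181. The digit markers Krt14, Col1a1 and Dcn stood at a mean log2 level of at least 11.77 in every group. The arrays labelled MRL day 0 and MRL day 3 went against their labels. Il1b, a wound cytokine, went in B6 from a mean of 6.01 ± 0.38 at day 0 to 11.78 ± 0.10 at day 3 (SD over 3 arrays), but was 10.21 ± 0.14 for MRL labelled day 0 and 5.98 ± 0.80 for MRL labelled day 3. The hair keratin Krt31 ran the other way, at 10.60 ± 0.21 and 6.38 ± 0.12 in B6 and at 7.48 ± 0.40 and 10.13 ± 0.14 in MRL as labelled. H2-Ea, absent from B6 by a known deletion, stood at 11.31 ± 0.08 and 11.11 ± 0.27 in these MRL groups and at 5.24 ± 0.13 in B6 day 0, which goes with their strain label. These groups are called "MRL labelled day 0" and "MRL labelled day 3" below, and the results for days 7 and 14 do not rest on their labels.

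Other arrays differed within their group. In B6 day 14, replicate 2 was the highest of the 3 arrays for 34 of the 40 genes. In MRL day 14, replicate 3 was the lowest of 3 for 10 genes and the highest for 25, and in B6 day 3, replicate 1 was the lowest for 13 and the highest for 21. The lowest genes were largely shared: Pola1, Bub1, Ttk, Cenpe, Kif11, Kif23, Ect2, Top2a and Mki67 were lowest in both of these arrays, while 18 genes were highest in both. Only 4 genes, Pole, Ccne2, Nusap1 and Anln, were highest in one and lowest in the other. For some genes, the results that turn on these arrays are given with and without them.

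In B6 digits, division genes rose after amputation, and the most were called at day 3. At day 3, 36 of the 40 genes were higher than in unamputated digits and 0 were lower, against 17.4% of all probe sets called higher, and the median difference was 0.73 against -0.08 over all probe sets. At day 7, 32 of 40 were higher and 0 lower, against 23.5% of all probe sets, with a median of 0.57 against -0.01. At day 14, 26 of 40 were higher and 0 lower, against 22.8%, with a median of 0.44 against -0.01. These 3 comparisons share the B6 day 0 arrays.

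The mitosis genes had the larger differences. All 20 were higher at day 3, with a median of 0.89, 18 at day 7 (0.72) and 17 at day 14 (0.60). Of the 20 replication genes, 16 were higher at day 3 (0.49), 14 at day 7 (0.44) and 9 at day 14 (0.23); whether the 2 sets differed was not tested. Averaged over the 40 genes, as the deviation from each gene's mean over the 24 arrays, the B6 day 0 arrays lay at -0.41, -0.49 and -0.46. The day 3 arrays lay at 0.25, 0.21 and 0.24, the day 7 arrays at 0.18, 0.18 and 0.23, and the day 14 arrays at 0.02, 0.24 and -0.08. All 9 arrays after amputation lay above all 3 arrays of day 0, and the day 14 arrays spread most.

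**Figure D1:**
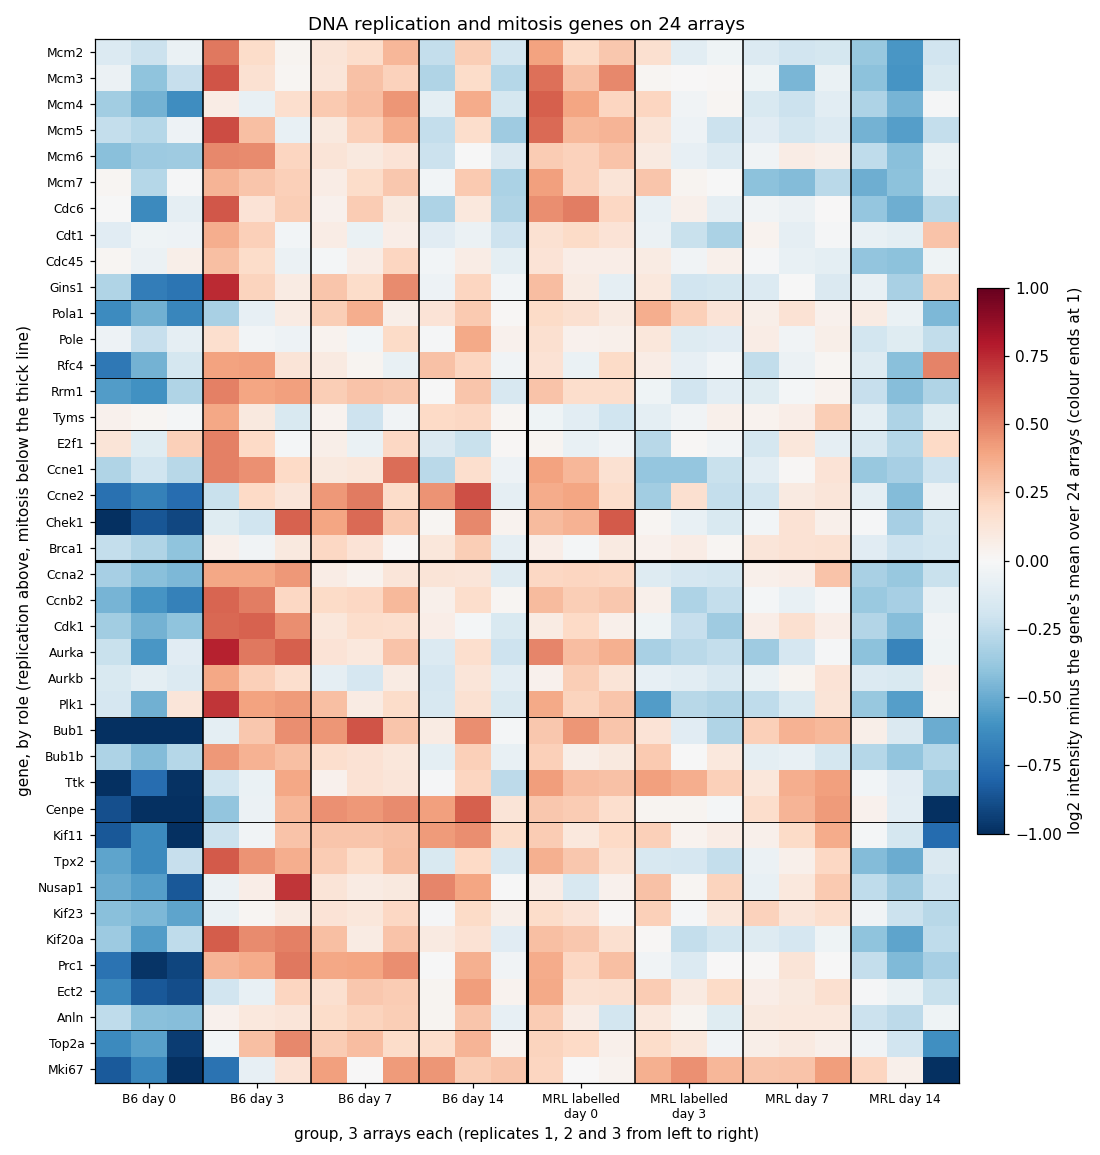
Log2 intensity of the 40 genes (rows, by role) in the 24 arrays (columns, 3 per group), as the difference from each gene's mean over all arrays; red is higher and blue lower. The B6 day 0 columns are blue for most genes, the B6 day 3 and day 7 columns are mostly red, and the MRL day 14 columns are mostly blue.

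**Figure D2:**
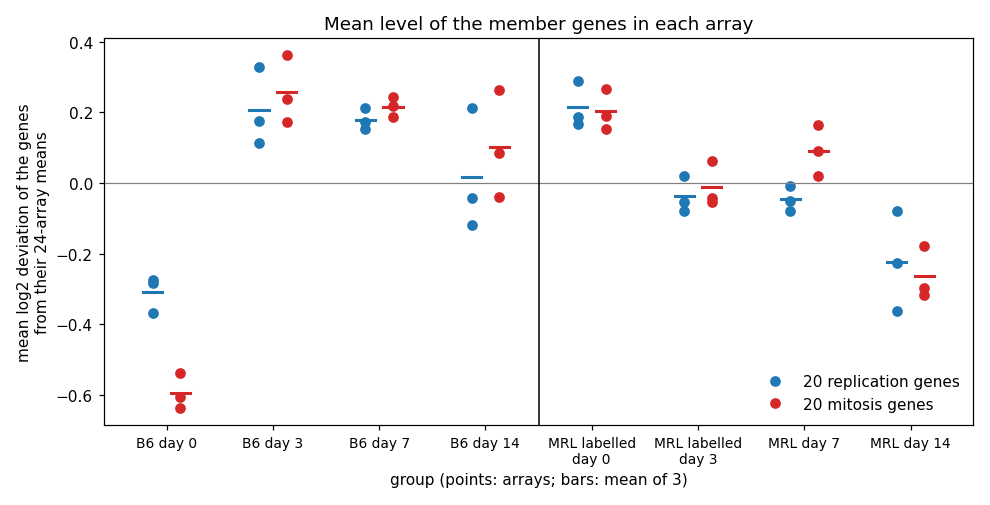
Mean deviation of the 20 replication genes (blue) and the 20 mitosis genes (red) from their 24-array means, in log2, for each array (points) and group (bars, mean of 3). The mitosis genes in B6 day 0 lie from -0.64 to -0.54, below every other array.

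Cell type markers moved with these genes. From B6 day 0 to day 3, 8 of 8 markers of the hair matrix and shaft were lower, and their summed intensity, given here as the lowest and highest array of a group, was 5679-7025 at day 0 and 650-739 at day 3. All 11 macrophage markers were higher, with sums of 5598-6631 and 15494-17332, as were 8 of 9 neutrophil markers, with sums of 854-1053 and 11482-13623. Of 8 basal epidermis markers 4 were lower, against 28% of all probe sets, with sums of 25078-26164 and 21402-23844. At day 7 the hair sum was 754-936, the macrophage sum 12126-13039, the neutrophil sum 4463-7052 and the bone sum 12754-14299. The tendon and fibroblast sum was 21594-22142 at day 0, 21643-22597 at day 3, 36956-38765 at day 7 and 39028-40615 at day 14. At day 14 the hair sum was 4024-5079, while the macrophage sum was 9725-10016 and the bone sum was 16187-20356, against 7162-7923 at day 0. Some markers were dim. In B6 day 0 the lowest log2 level of any macrophage marker was 4.04 and that of any neutrophil marker 4.35. The part of these cell types in the rise of the division genes was not tested.

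Among the 10 genes of origin licensing and the helicase, 9 were higher at day 3, 7 at day 7 and 3 at day 14. Over all probe sets the shares called higher were 17.4%, 23.5% and 22.8%, so the day 14 count was near the background. The same shares stand beside the counts of the other roles below. Gins1, a subunit of the GINS complex, had the largest difference at day 3. Its level was 6.38, 5.99 and 5.95 in the B6 day 0 arrays and 7.43, 6.91 and 6.76 at day 3. It was 6.96, 6.87 and 7.16 at day 7 and 6.63, 6.90 and 6.66 at day 14. All 9 arrays after amputation lay above the 3 of day 0, with differences of 0.92 ± 0.17 (adjusted p = 0.00014) at day 3, 0.88 ± 0.17 (adjusted p = 0.000225) at day 7 and 0.62 ± 0.17 (adjusted p = 0.0059) at day 14. Cdc45, which joins the Mcm ring to GINS, had the smallest. It was at 7.64, 7.56 and 7.68 at day 0 and 7.92, 7.80 and 7.56 at day 3. The later arrays held 7.60, 7.70 and 7.83 at day 7 and 7.60, 7.69 and 7.52 at day 14. The groups overlapped on every day, and the day 3 difference was 0.14 ± 0.10 (adjusted p = 0.275). Under the 3 other scalings (cyclic loess, median centring and quantile normalization) it was called higher at day 3, at up to 0.36 (adjusted p = 0.000649). The 6 Mcm genes of the helicase ring lay between: at day 3 the differences were 0.38 for Mcm2, 0.50 for Mcm3, 0.54 for Mcm4, 0.49 for Mcm5, 0.77 for Mcm6 and 0.38 for Mcm7, all called higher, although the Mcm5 arrays of both days overlapped. By day 14 only Mcm4, at 0.51 ± 0.14 (adjusted p = 0.00557), and Mcm6, at 0.26 ± 0.09 (adjusted p = 0.0338), were called among these 6, while the other 4 were within 0.05 to 0.10 of day 0. The loaders Cdc6, at 0.58 ± 0.15 (adjusted p = 0.00361), and Cdt1, at 0.26 ± 0.10 (adjusted p = 0.0493), were higher at day 3 and stood at 0.08 and -0.06 at day 14. The Cdt1 call held in 8 of 17 alternatives, with an adjusted p of up to 0.207, and the Mcm6 call at day 14 in 8 of 17, where the difference went down to 0.08 (adjusted p = 0.403). At day 7 the Cdc6 call held in 8 of 17, the Mcm2 call in 11 of 17 and the Mcm3 and Mcm5 calls in 13 of 17 each. The day 3 calls of Mcm2, Mcm5 and Mcm7 held in 14 of 17 each, with an adjusted p of up to 0.14. That of Mcm3 held in 15 of 17.

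The polymerase and clamp loader genes were uneven. Rfc4, a subunit of the clamp loader, was at 7.92, 8.16 and 8.45 at day 0 and 9.03, 9.04 and 8.76 at day 3. It stayed at 8.72, 8.66 and 8.55 at day 7 and 8.92, 8.85 and 8.59 at day 14. Every array after amputation was above those of day 0, with a day 3 difference of 0.77 ± 0.17 (adjusted p = 0.000986). Its call at day 7 held in 10 of 17 alternatives. Pola1, the catalytic subunit of the polymerase that lays down primers, was higher on all 3 days, by 0.48 ± 0.12 (adjusted p = 0.00338), 0.81 ± 0.12 (adjusted p = 2.22e-05) and 0.73 ± 0.12 (adjusted p = 0.000106). Pole, the catalytic subunit of the leading-strand polymerase, was called on none of these days. Its arrays held 7.08, 6.90 and 7.04 at day 0 and 7.30, 7.10 and 7.08 at day 3. At day 7 they held 7.17, 7.10 and 7.32 and at day 14 7.12, 7.51 and 7.17. The day 0 and day 3 arrays of Pole overlapped, and its day 14 difference was 0.26 ± 0.10 (adjusted p = 0.0502). The alternatives called it in 3 of 17 at day 3, those with another scaling, and in 6 of 17 at day 14.

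Of the genes that supply deoxynucleotides, Rrm1, the large subunit of ribonucleotide reductase, was at 9.55, 9.51 and 9.81 at day 0 and 10.62, 10.51 and 10.52 at day 3. It was at 10.36, 10.40 and 10.39 at day 7 and 10.11, 10.39 and 9.96 at day 14. The groups did not overlap, and the differences were 0.92 ± 0.10 (adjusted p = 2.9e-07), 0.76 ± 0.10 (adjusted p = 4.49e-06) and 0.53 ± 0.10 (adjusted p = 0.000326). Tyms, thymidylate synthase, did not pass the test on any day. Its arrays held 7.36, 7.35 and 7.30 at day 0 and 7.71, 7.42 and 7.17 at day 3. At day 7 they held 7.36, 7.12 and 7.29, and at day 14 7.53, 7.53 and 7.34. All groups overlapped, with a day 3 difference of 0.10 ± 0.11 (adjusted p = 0.502). It was called at day 3 under the 3 other scalings, at up to 0.33 (adjusted p = 0.003); a further probe set names Tyms among several genes and was not used.

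At the G1/S transition, the cyclin E genes rose and E2f1 did not pass. Ccne2 was at 6.43, 6.50 and 6.42 at day 0 and 6.95, 7.38 and 7.30 at day 3. It was at 7.62, 7.70 and 7.36 at day 7 and 7.63, 7.83 and 7.09 at day 14. No array after amputation overlapped day 0, and the differences were 0.76 ± 0.17 (adjusted p = 0.00098), 1.11 ± 0.17 (adjusted p = 2.19e-05) and 1.06 ± 0.17 (adjusted p = 4.95e-05). Ccne1, its paralogue, was higher at day 3 by 0.65 ± 0.13 (adjusted p = 0.000294) and at day 7 by 0.51 ± 0.13 (adjusted p = 0.00237), and stood at 0.21 ± 0.13 (adjusted p = 0.208) at day 14. E2f1, a transcription factor of the G1/S genes, was at 7.59, 7.35 and 7.70 at day 0 and 7.96, 7.66 and 7.44 at day 3. The later arrays held 7.52, 7.40 and 7.67 at day 7 and 7.32, 7.24 and 7.48 at day 14. Its groups overlapped at each day, with differences of 0.14 ± 0.14 (adjusted p = 0.42) at day 3 and -0.20 ± 0.14 (adjusted p = 0.27) at day 14. Under other scalings it was called: higher at day 3 with cyclic loess, median centring or quantile normalization, and lower at day 14 with median centring or quantile normalization.

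Both checkpoint and repair genes were higher on all days. Chek1, the kinase that halts the cycle when forks stall, was at 6.37, 6.51 and 6.45 at day 0 and 7.24, 7.16 and 7.95 at day 3. It was at 7.75, 7.93 and 7.62 at day 7 and 7.38, 7.84 and 7.39 at day 14. All later arrays stood above day 0, by 1.01 ± 0.16 (adjusted p = 3.85e-05), 1.32 ± 0.16 (adjusted p = 1.6e-06) and 1.10 ± 0.16 (adjusted p = 2.29e-05), or 2.01-fold, 2.5-fold and 2.14-fold. Brca1, a scaffold of homologous recombination, moved less. It was at 6.40, 6.34 and 6.25 at day 0 and 6.70, 6.61 and 6.75 at day 3. Day 7 gave 6.86, 6.78 and 6.66 and day 14 gave 6.76, 6.89 and 6.56. Its groups did not overlap with day 0 either, with a day 3 difference of 0.35 ± 0.08 (adjusted p = 0.0016).

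All 6 cyclin and mitotic kinase genes were higher at day 3, 4 at day 7 and 3 at day 14. Ccnb2, a cyclin that activates Cdk1, was at 8.40, 8.28 and 8.20 at day 0 and 9.45, 9.38 and 9.08 at day 3. It was at 9.06, 9.07 and 9.19 at day 7 and 8.92, 9.05 and 8.89 at day 14. The groups after amputation lay above day 0, by 1.01 ± 0.11 (adjusted p = 2.02e-07) at day 3 and 0.66 ± 0.11 (adjusted p = 6.5e-05) at day 14. Cdk1, the kinase itself, rose by 0.95 ± 0.10 (adjusted p = 1.29e-07) at day 3 and stood 0.37 ± 0.10 above day 0 at day 14. Ccna2, the S and G2 cyclin, rose by 0.80 ± 0.08 (adjusted p = 1.14e-07) and stood at 0.44 ± 0.08. Aurkb, the kinase of the chromosomal passenger complex, moved least. It was at 8.18, 8.24 and 8.20 at day 0 and 8.72, 8.57 and 8.50 at day 3. Day 7 gave 8.24, 8.16 and 8.41 and day 14 8.16, 8.45 and 8.22. Day 3 lay above day 0 by 0.39 ± 0.09 (adjusted p = 0.00201), and days 7 and 14 overlapped it, at 0.07 ± 0.09 and 0.07 ± 0.09. The kinases Aurka, at 0.94 ± 0.14, and Plk1, at 0.69 ± 0.16, were called at day 3. At day 14 they stood at 0.25 ± 0.14 (adjusted p = 0.183) and 0.13 ± 0.16 (adjusted p = 0.566). Plk1 had a further probe set, and the values are from the brighter. The further probe set was not looked at alone, so these values do not show whether it moved the same way. Over the 17 alternatives, which include the mean over probe sets, the Plk1 difference at day 3 went down to 0.19. The call held in 16 of 17, with an adjusted p of up to 0.147. At day 7 the Plk1 difference ran from -0.07 to 0.51 and was called in 5 of 17.

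The 4 spindle checkpoint and kinetochore genes were higher on all 3 days. Bub1, a kinase that recruits the checkpoint to kinetochores, had the largest difference of the 40 genes at day 3. It was at 6.00, 6.07 and 5.68 at day 0 and 7.00, 7.37 and 7.56 at day 3. It was at 7.54, 7.73 and 7.38 at day 7 and 7.18, 7.56 and 7.08 at day 14. Every later array was at least 7.00, against at most 6.07 at day 0, and the differences were 1.40 ± 0.16 (adjusted p = 7.88e-07), 1.64 ± 0.16 (adjusted p = 1.12e-07) and 1.36 ± 0.16 (adjusted p = 2.25e-06), or 2.64-fold, 3.11-fold and 2.57-fold. Bub1b, the checkpoint protein that restrains the anaphase-promoting complex, had the smallest of these 4. It was at 7.92, 7.79 and 7.95 at day 0 and 8.67, 8.58 and 8.53 at day 3. Day 7 gave 8.39, 8.37 and 8.34 and day 14 8.13, 8.47 and 8.15. The groups did not overlap with day 0, and the day 3 difference was 0.70 ± 0.09 (adjusted p = 3.48e-06). Ttk, a checkpoint kinase, rose by 0.97 ± 0.14, 1.03 ± 0.14 and 0.91 ± 0.14, and the kinetochore motor gene Cenpe by 0.95 ± 0.20, 1.44 ± 0.20 and 1.37 ± 0.20.

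The 3 spindle assembly genes were also higher on all 3 days. Tpx2, which activates Aurora A on the spindle, was at 7.68, 7.56 and 7.97 at day 0 and 8.81, 8.65 and 8.57 at day 3. It was at 8.45, 8.38 and 8.50 at day 7 and 8.05, 8.40 and 8.04 at day 14. It stood highest at day 3, by 0.94 ± 0.12 (adjusted p = 2.42e-06), and came to 0.43 ± 0.12 (adjusted p = 0.00799) at day 14. Kif11, the motor that pushes spindle poles apart, was at 7.40, 7.61 and 7.22 at day 0 and 8.03, 8.21 and 8.53 at day 3. It was at 8.53, 8.52 and 8.54 at day 7 and 8.67, 8.71 and 8.43 at day 14. Here the difference from day 0 was 0.85 ± 0.16 (adjusted p = 0.000163) at day 3 and 1.20 ± 0.16 (adjusted p = 5.46e-06) at day 14. Nusap1, which bundles spindle microtubules, gave 0.87 ± 0.16, 0.73 ± 0.16 and 0.92 ± 0.16.

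All 5 genes of the central spindle and cytokinesis were higher on all 3 days. Prc1, which crosslinks the microtubules of the central spindle, was at 8.09, 7.85 and 7.91 at day 0 and 9.17, 9.20 and 9.36 at day 3. It was at 9.21, 9.22 and 9.29 at day 7 and 8.83, 9.18 and 8.80 at day 14. All 9 later arrays were above day 0 by a wide margin, 1.29 ± 0.10 (adjusted p = 1.98e-09) at day 3, 1.29 ± 0.10 (adjusted p = 2.61e-09) at day 7 and 0.98 ± 0.10 (adjusted p = 2.47e-07) at day 14. Anln, the anillin of the contractile ring, had the smallest difference. It was at 7.89, 7.73 and 7.72 at day 0 and 8.19, 8.25 and 8.26 at day 3. Day 7 gave 8.33, 8.37 and 8.39 and day 14 8.17, 8.42 and 8.06, all above day 0, with a day 3 difference of 0.46 ± 0.11 (adjusted p = 0.00145). The central spindle motors Kif20a and Kif23 gave 0.92 ± 0.10 and 0.48 ± 0.09 at day 3, and Ect2, the exchange factor that starts furrowing, 0.77 ± 0.11.

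Top2a, the topoisomerase that untangles sister chromosomes, was at 8.96, 9.05 and 8.65 at day 0 and 9.57, 9.90 and 10.08 at day 3. It was at 9.86, 9.91 and 9.78 at day 7 and 9.78, 9.94 and 9.64 at day 14. All later arrays lay above day 0, by 0.96 ± 0.14 (adjusted p = 1.26e-05), 0.96 ± 0.14 (adjusted p = 1.3e-05) and 0.89 ± 0.14 (adjusted p = 4.19e-05). Mki67, the gene of the Ki-67 proliferation marker, was at 8.19, 8.38 and 7.80 at day 0 and 8.30, 8.96 and 9.17 at day 3. It was at 9.45, 9.04 and 9.46 at day 7 and 9.48, 9.28 and 9.31 at day 14. Replicate 1 of day 3 lay within the day 0 range. The day 3 difference was 0.68 ± 0.24 (adjusted p = 0.0262) with it and 0.94 ± 0.25 (adjusted p = 0.00394) without it. Over the 17 alternatives the day 3 call of Mki67 held in 14. The difference went down to 0.50 and the adjusted p of limma up to 0.141. Days 7 and 14 did not overlap with day 0, at 1.19 ± 0.24 (adjusted p = 0.000475) and 1.23 ± 0.24 (adjusted p = 0.000444).

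**Figure D3:**
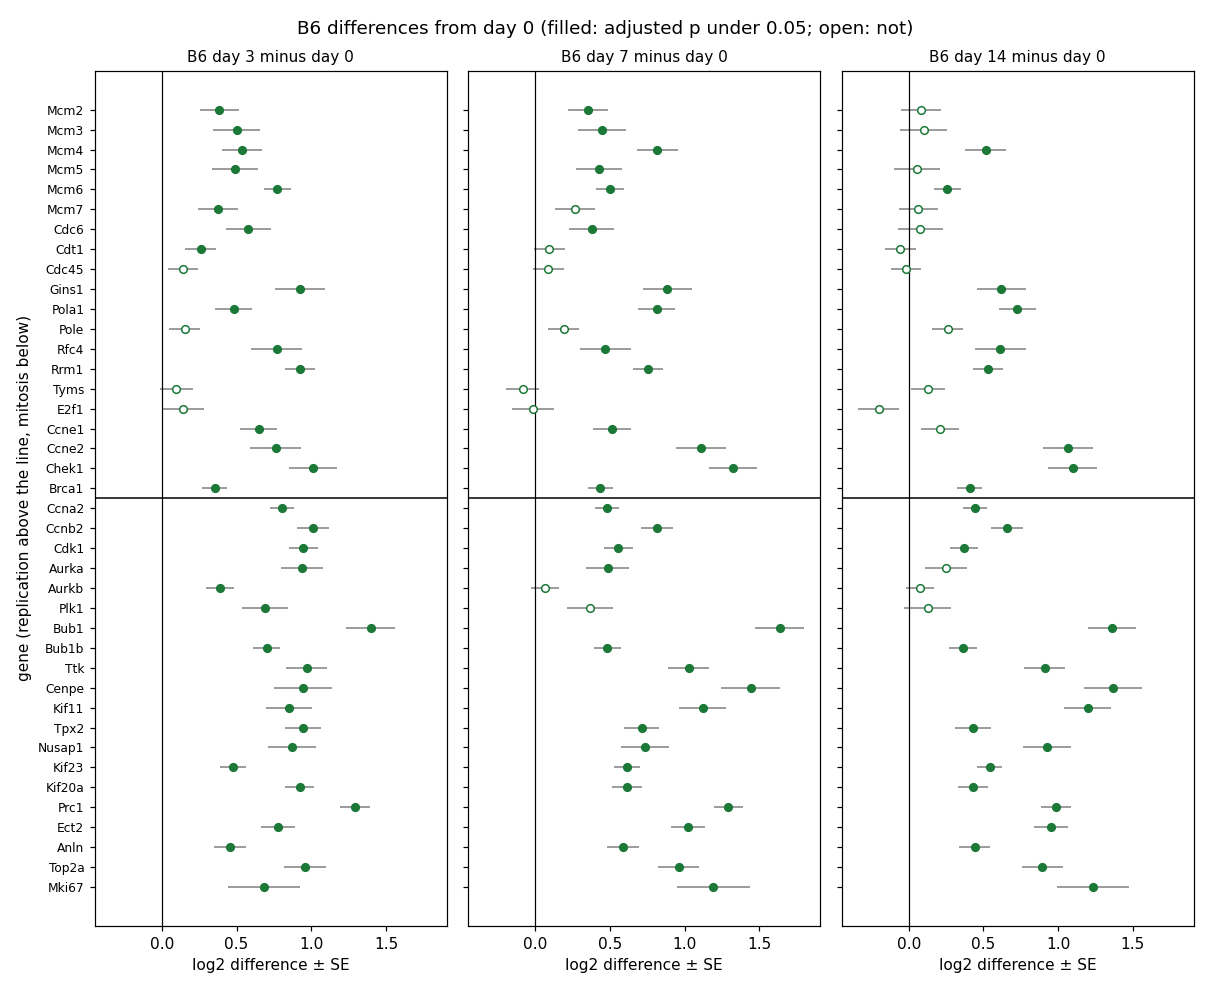
Log2 differences from B6 day 0 with their SE (bars) for the 40 genes at days 3, 7 and 14; filled points passed an adjusted p of 0.05 and open points did not. All points of the mitosis genes are filled at day 3, and Bub1 lies farthest to the right there.

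After day 3 some of the genes fell. From day 3 to day 7 in B6, 6 of the 40 genes fell and 0 rose, against 4.17% of all probe sets called lower. They were Mcm6 at -0.27 ± 0.09 (adjusted p = 0.0402), Ccna2 at -0.32 ± 0.08 (adjusted p = 0.00663), Cdk1 at -0.39 ± 0.10 (adjusted p = 0.00602), Aurka at -0.45 ± 0.14 (adjusted p = 0.0255), Aurkb at -0.33 ± 0.09 (adjusted p = 0.0166) and Kif20a at -0.31 ± 0.10 (adjusted p = 0.0332). In each of the 6, all day 7 arrays lay below all day 3 arrays. Other genes stood higher at day 7 without passing, such as Mki67 at 0.51 ± 0.24 (adjusted p = 0.153) and Cenpe at 0.50 ± 0.20 (adjusted p = 0.0785). Without replicate 3 of day 3, 4 genes were called higher beside 6 lower. The count was 2 without replicate 1 of day 3 or replicate 2 of day 7, and 3 without replicate 1 of day 7. With cyclic loess, median centring and quantile normalization, 16, 18 and 17 genes were called lower and 0 higher. Between these days 6 of 11 macrophage and 4 of 9 neutrophil markers fell as well. Of 7 tendon and fibroblast markers 6 rose, while 2708 of 15928 probe sets were called higher. The part of these cell types was not tested.

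The comparison of day 14 with day 3, added after the values had been seen, called 16 genes lower and 0 higher, against 7.28% of all probe sets lower. It counted 10 without replicate 1 of day 14 and 6 with only the compared arrays in the fit. The largest falls were in Aurka, at -0.69 ± 0.14 (adjusted p = 0.000815), Cdk1, at -0.58 ± 0.10 (adjusted p = 0.000117), and Plk1, at -0.57 ± 0.16 (adjusted p = 0.00821); Mcm6 fell by 0.51 and Tpx2 by 0.51. Mki67, at 0.55 ± 0.24 (adjusted p = 0.0922), Cenpe, at 0.42 ± 0.20 (adjusted p = 0.11), and Kif11, at 0.35 ± 0.16 (adjusted p = 0.0987), were above day 3 without passing. From day 7 to day 14, 0 of 40 genes were called by limma, against 1.86% of all probe sets called in either direction. At an unadjusted limma p under 0.05 there were 8 genes, and that share was not counted over all probe sets. By group means, 22 genes stood highest at day 3, 13 at day 7 and 5 at day 14, and 36 stood lowest at day 0.

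**Figure D4:**
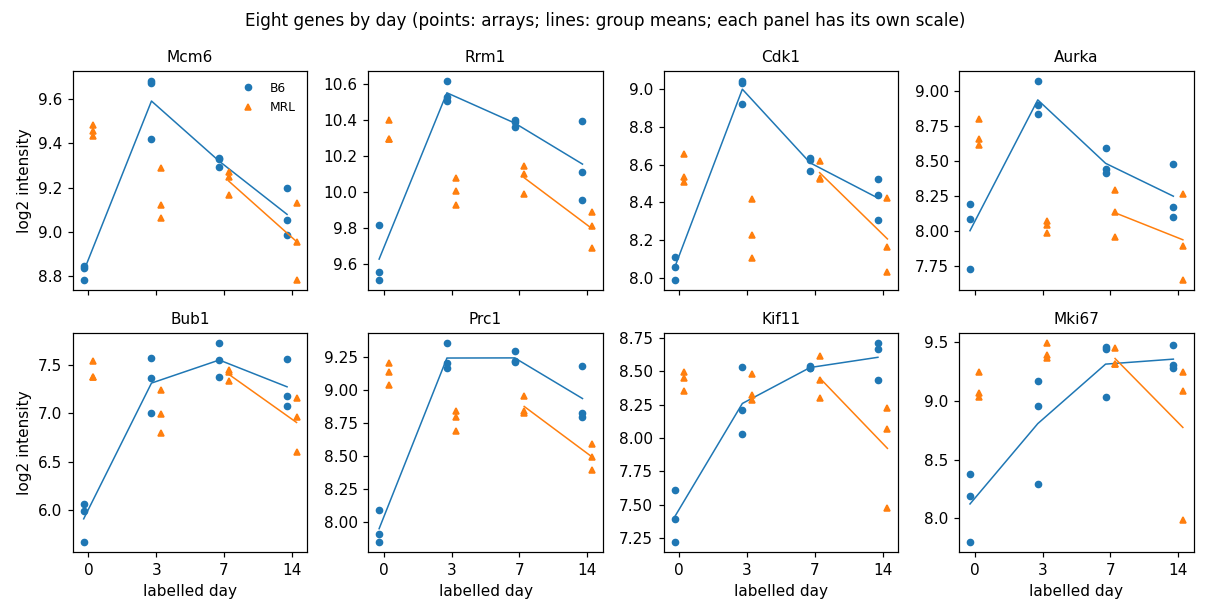
Log2 intensity of 8 genes in B6 (blue circles) and MRL (orange triangles) by labelled day, with points for arrays and lines for group means; MRL has a line from day 7 only, and each panel has its own scale. Mcm6, Rrm1, Cdk1 and Aurka are highest at day 3 in B6, while Kif11 and Mki67 have their highest B6 mean at day 14.

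Many promoters of these genes, but not all, hold short motifs that are known from cell cycle genes. These are the CCAAT box (CCAAT), the cell cycle genes homology region (TTTGAA) and E2F-like letters (TTTCCCGC, TTTGGCGC, TTTCGCGC or TTTGCCGC). Each was searched on both strands of the RefSeq promoters of build GRCm38.p6, 250 bases before to 50 after the start site, which held 32 of the 40 members. Of 16 mitosis genes, 14 held a CCAAT box (87.5%) and 13 held TTTGAA (81.3%), and 1 held E2F-like letters (6.25%). Of 16 replication genes, 9 held a CCAAT box (56.3%), 2 held TTTGAA (12.5%) and 7 held E2F-like letters (43.8%). Of all 32851 promoters in the table, 37.4% held a CCAAT box, 17.9% TTTGAA and 2.26% E2F-like letters; per gene, over 27025 genes, the shares were 41.1%, 20.2% and 2.61%. A match is a run of letters, not a bound site.

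The 250 bases before the start site are shown for 5 members, 5′ to 3′ on the gene's strand, with motif letters in capitals. Mcm6 (chr1:128359706-128359955, minus strand) and Cdk1 (chr10:69352913-69353162, minus strand) fell again after day 3, and Cdk1 holds all 3 kinds of motif. Rrm1 (chr7:102441445-102441694, plus strand), Bub1 (chr2:127831860-127832109, minus strand) and Prc1 (chr7:80294226-80294475, plus strand, the second of its 2 start sites) are members with large differences at day 3. All 5 shown hold motifs, so they do not stand for every member. Chek1, with a larger day 3 difference than Rrm1 and Mcm6, held none of the 3 kinds and is not shown. Rfc4, Ccne1, E2f1, Tyms and Nusap1 also held none. In Mcm6, 2 overlapping E2F-like runs, TTTGGCGC and GCGCGAAA, make up the first stretch of capitals.
Mcm6: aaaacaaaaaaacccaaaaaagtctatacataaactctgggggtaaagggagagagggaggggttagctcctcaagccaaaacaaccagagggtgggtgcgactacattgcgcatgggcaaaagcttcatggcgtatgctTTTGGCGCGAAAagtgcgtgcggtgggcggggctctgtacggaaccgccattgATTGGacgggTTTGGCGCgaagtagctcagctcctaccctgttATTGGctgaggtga
Rrm1: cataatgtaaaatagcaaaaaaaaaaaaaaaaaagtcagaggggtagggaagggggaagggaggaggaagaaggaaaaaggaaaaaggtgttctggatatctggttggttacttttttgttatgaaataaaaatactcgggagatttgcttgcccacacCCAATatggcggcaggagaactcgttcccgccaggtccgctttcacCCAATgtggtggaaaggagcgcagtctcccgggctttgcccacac
Cdk1: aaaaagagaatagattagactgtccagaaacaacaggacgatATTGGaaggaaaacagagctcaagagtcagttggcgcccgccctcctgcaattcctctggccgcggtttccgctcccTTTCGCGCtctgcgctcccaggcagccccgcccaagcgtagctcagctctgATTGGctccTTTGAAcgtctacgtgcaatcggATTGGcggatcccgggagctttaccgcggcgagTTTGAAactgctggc
Bub1: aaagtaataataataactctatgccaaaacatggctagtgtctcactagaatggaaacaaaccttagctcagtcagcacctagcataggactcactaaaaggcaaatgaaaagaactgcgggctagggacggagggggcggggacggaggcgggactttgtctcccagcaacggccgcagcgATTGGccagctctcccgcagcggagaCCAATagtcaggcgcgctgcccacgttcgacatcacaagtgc
Prc1: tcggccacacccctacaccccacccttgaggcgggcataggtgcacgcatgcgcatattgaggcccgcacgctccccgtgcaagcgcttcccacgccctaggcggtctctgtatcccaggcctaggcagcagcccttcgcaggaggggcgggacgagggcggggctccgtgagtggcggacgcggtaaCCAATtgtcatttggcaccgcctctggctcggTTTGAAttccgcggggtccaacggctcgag

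A wider list of the same processes was counted as well. Of 38 further replication genes on the arrays, 22 were higher and 1 lower at B6 day 3, 19 and 2 at day 7, and 15 and 1 at day 14, with medians of 0.31, 0.33 and 0.23. The largest at day 3 were Dbf4, at 1.08 ± 0.13, which activates the Cdc7 kinase, the primase subunit Prim1, at 1.04 ± 0.10, and the fork protein Tipin, at 0.92 ± 0.12. The exceptions were subunits of the lagging-strand polymerase: Pold1 was lower on all 3 days (-0.28 ± 0.10, -0.28 ± 0.10 and -0.30 ± 0.10) and Pold2 at day 7 (-0.40 ± 0.13). Of 49 further mitosis genes, 31 were higher and 1 lower at day 3, 27 and 1 at day 7, and 24 and 0 at day 14, with medians of 0.54, 0.48 and 0.30. Mad2l1, the checkpoint protein Mad2, was at 1.36 ± 0.12 at day 3, the kinase gene Pbk at 1.25 ± 0.14 and the kinetochore gene Nuf2 at 1.18 ± 0.14. Cdc25b, a phosphatase that activates Cdk1, was the lower one, at -0.57 ± 0.17 at day 3 and -0.50 ± 0.17 at day 7.

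The genes that act earlier in the cycle were counted for comparison. Of 16 G1 cyclin, kinase and E2F family genes, 2 were higher and 4 lower at day 3, 5 and 3 at day 7, and 5 and 1 at day 14, with medians of 0.01, 0.09 and 0.14. Over all probe sets the lower calls were 28%, 19.4% and 14.2% beside the higher calls given above, so this list as a whole was close to the background at days 3 and 7. The higher ones at day 3 were Rbl1, a pocket protein, at 0.39 ± 0.08, and E2f5, at 0.32 ± 0.12. The lower ones were the D-type cyclin gene Ccnd2, at -0.85 ± 0.11, E2f2, at -0.52 ± 0.12, Tfdp2, at -0.44 ± 0.12, and Rbl2, at -0.32 ± 0.08.

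At days 7 and 14, division genes stood lower in MRL than in B6 where they differed. At day 7, 4 of 40 genes were lower and 0 higher, against 6.27% of all probe sets lower, so the members' share was near the background; the median was -0.15 against -0.07 over all probe sets. The 4 were the helicase genes Mcm4, at -0.49 ± 0.14 (adjusted p = 0.0247), and Mcm7, at -0.55 ± 0.13 (adjusted p = 0.0112), and the central spindle genes Kif20a, at -0.33 ± 0.10 (adjusted p = 0.0386), and Prc1, at -0.37 ± 0.10 (adjusted p = 0.0206). All MRL arrays lay below all B6 arrays in each of the 4. Without replicate 3 of B6 day 7, 0 genes were called, and leaving out any other single array of these groups except replicate 1 of B6 day 7 left 1 or 2.

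At day 14, 8 of 40 genes were lower and 0 higher, against 4.4% of all probe sets lower, with a median of -0.30 against -0.06. Most calls over all probe sets were also lower in MRL. Of these calls 16.4% were higher, and 47.9% with each array centred on its median. By limma, 28 of the 40 had an unadjusted p under 0.05, none of them higher. The share of all probe sets under that unadjusted p was not counted. Kif11 was at 8.67, 8.71 and 8.43 in B6 and 8.23, 8.07 and 7.47 in MRL, -0.68 ± 0.16 (adjusted p = 0.00997). Cenpe was at 7.27, 7.46 and 6.99 in B6 and 6.90, 6.76 and 5.86 in MRL, -0.73 ± 0.20 (adjusted p = 0.028). Replicate 3 of MRL was the lowest array of both genes. Without it Kif11 stood at -0.46 ± 0.14 (adjusted p = 0.0451) and Cenpe at -0.41 ± 0.15 (adjusted p = 0.111). Mki67 showed the same array: it was at 9.48, 9.28 and 9.31 in B6 and 9.25, 9.09 and 7.99 in MRL, with a difference of -0.58 ± 0.24 (adjusted p = 0.205) with that array and -0.19 ± 0.19 (adjusted p = 0.61) without it.

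In the other 6 genes replicate 3 of MRL was not the lowest array. Without it Rrm1, at -0.37 ± 0.11 (adjusted p = 0.0535), and Nusap1, at -0.60 ± 0.18 (adjusted p = 0.051), did not pass. Prc1, Bub1b, Ccna2 and Kif20a still passed. Prc1 was at 8.83, 9.18 and 8.80 in B6 and 8.59, 8.39 and 8.50 in MRL, -0.44 ± 0.10 (adjusted p = 0.00847). Rrm1 was at 10.11, 10.39 and 9.96 and 9.89, 9.69 and 9.81, -0.36 ± 0.10 (adjusted p = 0.038), and Bub1b at 8.13, 8.47 and 8.15 and 7.95, 7.84 and 7.95, -0.34 ± 0.09 (adjusted p = 0.0305). In these genes all MRL arrays lay below all B6 arrays. Ccna2 gave -0.35 ± 0.08 (adjusted p = 0.0121), Kif20a -0.43 ± 0.10 (adjusted p = 0.0109) and Nusap1 -0.56 ± 0.16 (adjusted p = 0.0436). The count turned on replicate 2 of B6 day 14, the array that was highest for 34 genes. Over the 17 alternatives Nusap1 was called in 6 of 17, Cenpe and Rrm1 in 9 of 17 each, Bub1b in 11 of 17, Ccna2 and Kif11 in 12 of 17 each, Prc1 in 13 of 17 and Kif20a in 14 of 17. Without that array 0 of 40 were called, Prc1 standing at -0.32 ± 0.09 (adjusted p = 0.0762) and Kif11 at -0.63 ± 0.18 (adjusted p = 0.0567). The count was 5 without replicate 1 of B6 day 14 and 2 without replicate 2 of MRL day 14. It was also 0 with only the 6 arrays compared in the fit, and 1 with each array centred on its median.

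**Figure D5:**
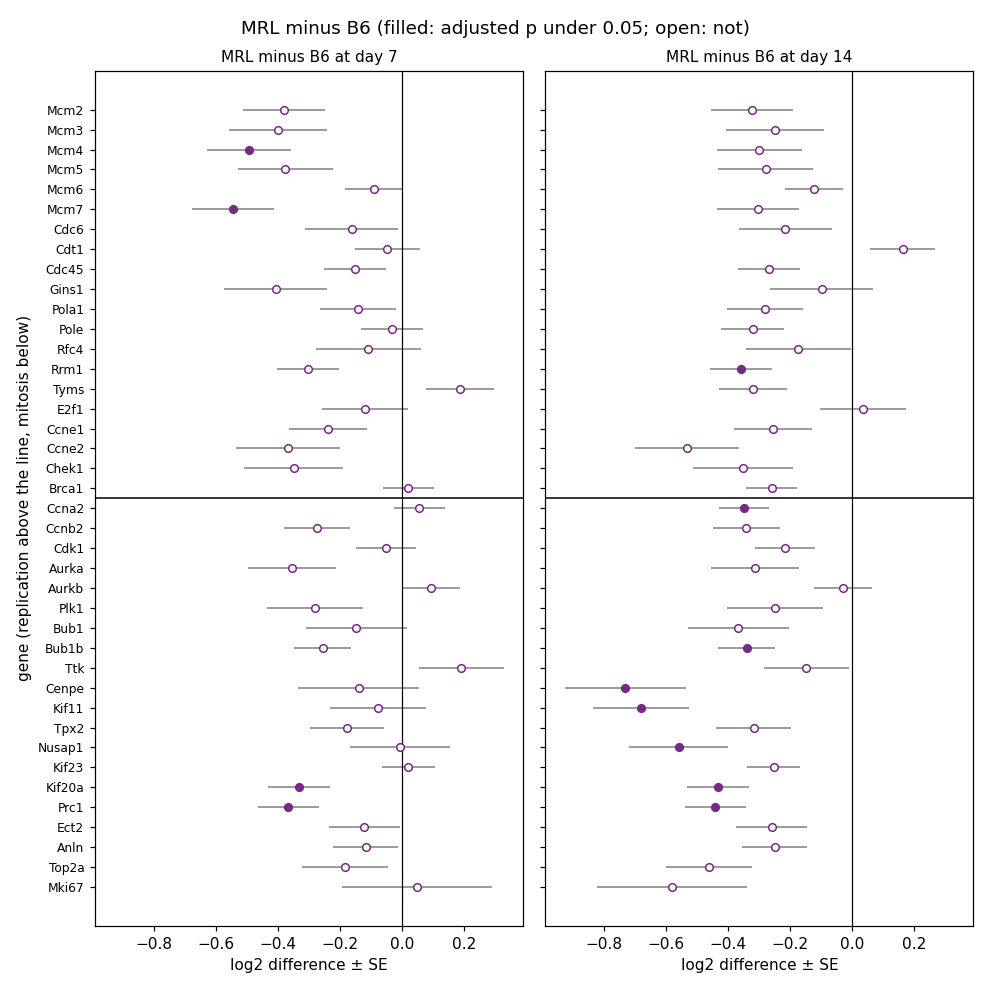
Log2 differences of MRL minus B6 with their SE (bars) for the 40 genes at days 7 and 14; filled points passed an adjusted p of 0.05. At day 14, 38 of 40 points lie left of 0 and 8 are filled, with Cenpe at -0.73 and Kif11 at -0.68 farthest left.

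Macrophage markers stood lower in MRL beside these genes. At day 7, 8 of 11 macrophage markers and 4 of 9 neutrophil markers were lower in MRL and 0 higher, and at day 14 10 of 11 and 3 of 9. The macrophage sums were 12126-13039 in B6 and 6733-7709 in MRL at day 7, and 9725-10016 and 5330-6587 at day 14. The neutrophil sums overlapped at day 7, at 4463-7052 and 2675-6315, and were 2518-6803 and 1564-1993 at day 14. Among 7 T cell markers, 1 was higher in MRL at day 7, and their sums were 1585-1828 in B6 and 1841-2159 in MRL. Of 8 hair matrix markers, 6 were higher in MRL at day 7 and 2 at day 14, with sums of 4024-5079 in B6 and 5808-7272 in MRL at day 14. Of 8 basal epidermis markers, 3 were lower at day 7 and 0 were called at day 14. Their part in the strain difference was not tested. The further mitosis genes gave 8 lower and 0 higher of 49 at day 7 and 14 lower and 0 higher at day 14, with a median of -0.27. Among them at day 14 were the condensin subunits Smc2, at -0.78 ± 0.21, Ncapd2, at -0.65 ± 0.09, and Ncapg2, at -0.61 ± 0.13, and the kinetochore gene Ndc80, at -0.76 ± 0.14. The further replication genes gave 2 lower of 38 at day 7 and 1 at day 14, the exonuclease gene Exo1 (-0.40 ± 0.11). The G1 genes gave 0 and 1 of 16, the latter Ccnd2 (-0.53 ± 0.11). Over all probe sets 6.27% were lower at day 7 and 4.4% at day 14. The replication list was not above these shares on either day, nor was the G1 list at day 7. At day 14 the G1 share was above it, through 1 gene.

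From day 7 to day 14 in MRL, 5 of 40 genes fell and 0 rose, against 1.79% of all probe sets lower, with a median of -0.27. They were Ccna2, at -0.44 ± 0.08 (adjusted p = 0.00222), Cdk1, at -0.35 ± 0.10 (adjusted p = 0.0468), Brca1, at -0.31 ± 0.08 (adjusted p = 0.039), Kif23, at -0.35 ± 0.09 (adjusted p = 0.024), and Prc1, at -0.38 ± 0.10 (adjusted p = 0.0328). Ccna2 was at 9.31, 9.33 and 9.55 at day 7 and 8.94, 8.88 and 9.04 at day 14, and Cdk1 at 8.52, 8.62 and 8.53 and 8.16, 8.03 and 8.42. The arrays of both days did not overlap in any of the 5. Over the same days all 8 hair matrix markers rose, with sums of 1511-1743 and 5808-7272, the macrophage sums were 6733-7709 and 5330-6587 and the neutrophil sums 2675-6315 and 1564-1993, and their part was not tested. The count was 0 with only the compared arrays in the fit, and 1 or 2 without any 1 of the day 7 arrays or without replicate 2 of day 14. Without replicate 3 of day 14, Ccna2 stood at -0.49 ± 0.09 (adjusted p = 0.00262) and Cdk1 at -0.46 ± 0.09 (adjusted p = 0.00749). The others of the 5 did not pass without it. Brca1 was at -0.30 ± 0.09 (adjusted p = 0.0904), Kif23 at -0.30 ± 0.09 (adjusted p = 0.0997) and Prc1 at -0.38 ± 0.11 (adjusted p = 0.0732). The fall was not shown to differ from B6. For the strain difference in the day 7 to 14 change, 0 of 40 genes were called by limma, against 0.264% of all probe sets called in either direction. At an unadjusted limma p under 0.05 there were 7 genes, and that share was not counted over all probe sets.

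The MRL groups whose labels are in doubt went the other way from B6. As labelled, 15 of 40 genes were lower at MRL day 3 than at MRL day 0 and 0 higher, against 7.15% of all probe sets lower. Aurka was at 8.80, 8.61 and 8.66 in MRL labelled day 0 and 7.98, 8.04 and 8.07 in labelled day 3, -0.66 ± 0.14 (adjusted p = 0.00199). Plk1 gave -0.67 ± 0.16 (adjusted p = 0.00384) and Ccne1 -0.63 ± 0.13 (adjusted p = 0.00103). The count was 7 to 9 without replicate 2 of labelled day 0, or without replicate 2 or 3 of labelled day 3. Against B6 day 0, 35 of 40 genes were higher in MRL labelled day 0 and 0 lower, against 17.9% of all probe sets higher, with Bub1 at 1.52 ± 0.16 (adjusted p = 4.06e-07). In MRL labelled day 3, 22 were higher and 0 lower, against 18%, with Mki67 at 1.30 ± 0.24 (adjusted p = 0.000407) and Ttk at 1.26 ± 0.14 (adjusted p = 2.4e-06); this comparison was added after the values had been seen. Both comparisons share the B6 day 0 arrays. The summed hair matrix markers were 5679-7025 in B6 day 0, 1130-1309 in MRL labelled day 0 and 4603-5714 in MRL labelled day 3. The summed neutrophil markers were 854-1053, 5759-8563 and 804-2757 in the same order. The erythroid marrow sums were 1097-1289, 1609-2034 and 1623-2624, with 1 of 5 of these markers higher in labelled day 3 than in B6 day 0. The part of these cell types was not tested.

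Against B6 day 3, MRL labelled day 3 had 15 of 40 genes lower, against 13.6% of all probe sets, and 2 higher, against 27.1%. The higher ones were Pola1, at 0.35 ± 0.12 (adjusted p = 0.0259), and Mki67, at 0.61 ± 0.24 (adjusted p = 0.049), and the largest lower ones were Aurka, at -0.91 ± 0.14 (adjusted p = 2.81e-05), and Plk1, at -0.89 ± 0.16 (adjusted p = 9.64e-05). MRL labelled day 0, in a comparison added after the values had been seen, had 1 gene lower than B6 day 3, Cdk1 at -0.43 ± 0.10 (adjusted p = 0.00621), against 4.06% of all probe sets, and 0 higher; without replicate 3 of B6 day 3 the calls were 3 higher and 2 lower. The labelled day 0 to 3 change differed between the strains in 34 of 40 genes, all lower in MRL, against 16.4% of all probe sets, in a further comparison added after the values had been seen. Its direction follows the doubted labels.

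The values of each MRL array show how these groups lie, beginning with the replication genes. Gins1 was at 6.99, 6.76 and 6.59 in labelled day 0, at 6.78, 6.49 and 6.50 in labelled day 3, at 6.54, 6.67 and 6.54 at day 7 and at 6.61, 6.36 and 6.93 at day 14. All of its groups overlapped in part. Cdc45 was at 7.76, 7.69 and 7.68 in labelled day 0, at 7.70, 7.59 and 7.67 in labelled day 3, at 7.61, 7.54 and 7.52 at day 7 and at 7.23, 7.21 and 7.57 at day 14. Its lowest arrays were 2 of day 14. Rfc4 was at 8.77, 8.56 and 8.82 in labelled day 0, at 8.70, 8.55 and 8.60 in labelled day 3, at 8.38, 8.57 and 8.65 at day 7 and at 8.50, 8.21 and 9.13 at day 14. Both its highest and its lowest MRL array were in day 14. Pole was at 7.29, 7.17 and 7.18 in labelled day 0, at 7.25, 7.00 and 7.02 in labelled day 3, at 7.20, 7.10 and 7.19 at day 7 and at 6.95, 7.01 and 6.88 at day 14. All its day 14 arrays lay below those of labelled day 0 and day 7.

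Rrm1 was at 10.40, 10.29 and 10.29 in labelled day 0, at 10.07, 9.92 and 10.01 in labelled day 3 and at 9.99, 10.10 and 10.15 at day 7. Its labelled day 0 arrays lay above the others, day 14 included. Tyms was at 7.28, 7.22 and 7.12 in labelled day 0, at 7.22, 7.29 and 7.38 in labelled day 3, at 7.36, 7.39 and 7.57 at day 7 and at 7.23, 7.01 and 7.20 at day 14. E2f1 was at 7.49, 7.39 and 7.43 in labelled day 0, at 7.18, 7.47 and 7.43 in labelled day 3, at 7.29, 7.58 and 7.38 at day 7 and at 7.30, 7.18 and 7.66 at day 14. Neither Tyms nor E2f1 was called in any of the 4 comparisons of day 7 or 14 with a doubted group. Ccne2 was at 7.55, 7.58 and 7.35 in labelled day 0, at 6.84, 7.34 and 6.94 in labelled day 3, at 7.00, 7.27 and 7.30 at day 7 and at 7.08, 6.75 and 7.12 at day 14. Chek1 was at 7.67, 7.71 and 7.97 in labelled day 0, at 7.38, 7.28 and 7.21 in labelled day 3, at 7.33, 7.50 and 7.41 at day 7 and at 7.34, 7.03 and 7.18 at day 14. In both Ccne2 and Chek1 the labelled day 0 arrays lay above those of the other groups. Brca1 was at 6.71, 6.63 and 6.74 in labelled day 0, at 6.69, 6.72 and 6.66 in labelled day 3, at 6.77, 6.79 and 6.80 at day 7 and at 6.53, 6.44 and 6.46 at day 14. Its day 14 arrays lay below the other 3 groups.

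Among the mitosis genes, labelled day 0 was above the other groups in Ccnb2 and Prc1. Ccnb2 was at 9.18, 9.12 and 9.14 in labelled day 0, at 8.92, 8.56 and 8.63 in labelled day 3, at 8.85, 8.79 and 8.86 at day 7 and at 8.50, 8.54 and 8.80 at day 14. Prc1 was at 9.21, 9.04 and 9.14 in labelled day 0, at 8.80, 8.69 and 8.84 in labelled day 3 and at 8.85, 8.96 and 8.83 at day 7. In Aurkb, the labelled day 3 arrays lay below those of labelled day 0 and day 7. Aurkb was at 8.37, 8.58 and 8.46 in labelled day 0, at 8.25, 8.23 and 8.17 in labelled day 3, at 8.27, 8.36 and 8.47 at day 7 and at 8.19, 8.18 and 8.37 at day 14. Bub1 was at 7.37, 7.54 and 7.38 in labelled day 0, at 7.24, 6.99 and 6.80 in labelled day 3, at 7.33, 7.45 and 7.42 at day 7 and at 7.16, 6.96 and 6.60 at day 14. In Bub1, labelled day 0 and day 7 overlapped, and day 14 lay below both. Bub1b was at 8.47, 8.29 and 8.33 in labelled day 0, at 8.49, 8.23 and 8.33 in labelled day 3 and at 8.13, 8.15 and 8.05 at day 7. Its arrays of days 7 and 14 lay below both doubted groups.

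The spindle genes differed among themselves. Tpx2 was at 8.56, 8.47 and 8.35 in labelled day 0, at 8.04, 8.04 and 7.96 in labelled day 3, at 8.15, 8.25 and 8.41 at day 7 and at 7.77, 7.71 and 8.06 at day 14. Labelled day 0 overlapped with day 7 and lay above the rest. Kif11 was at 8.50, 8.35 and 8.45 in labelled day 0, at 8.48, 8.28 and 8.32 in labelled day 3 and at 8.30, 8.44 and 8.62 at day 7. Anln was at 8.40, 8.22 and 7.96 in labelled day 0, at 8.25, 8.17 and 8.02 in labelled day 3, at 8.24, 8.25 and 8.25 at day 7 and at 7.93, 7.88 and 8.10 at day 14. In Kif11 and Anln, the groups before day 14 overlapped. Top2a was at 9.82, 9.80 and 9.65 in labelled day 0, at 9.79, 9.72 and 9.57 in labelled day 3, at 9.66, 9.69 and 9.65 at day 7 and at 9.57, 9.41 and 8.99 at day 14. Its doubted groups overlapped as well. Mki67 was at 9.25, 9.04 and 9.07 in labelled day 0, at 9.39, 9.50 and 9.37 in labelled day 3 and at 9.31, 9.32 and 9.45 at day 7. The labelled day 3 arrays of Mki67 lay above those of labelled day 0, the reverse of Ccnb2.

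Against MRL labelled day 0, 8 of 40 genes were lower at day 7, against 6.55% of all probe sets, and 27 at day 14, against 7.23%, with 0 higher on either day. At day 14 the largest were Mcm3, at -0.83 ± 0.16 (adjusted p = 0.000756), and Mcm5, at -0.83 ± 0.15 (adjusted p = 0.000575). At day 7 the lower genes included 5 of the 6 Mcm genes, Mcm7 at -0.63 ± 0.13 (adjusted p = 0.00225) among them. Against MRL labelled day 3, 3 genes were higher at day 7, Ccne1, Ccna2 and Cdk1, against 9.68% of all probe sets, and 1 was lower, Mcm7 at -0.47 ± 0.13 (adjusted p = 0.0124), against 13.4%. At day 14, 6 were lower, Mcm7, Cdc45, Pola1, Bub1b, Ttk and Kif23, against 7.55%, and 0 higher. The shares of members called against labelled day 3 at day 7 were below the background. The lower count at day 7 was 4 without replicate 1 of labelled day 0 and 3 without replicate 2 of day 7. Against labelled day 3, the day 7 count was 1 without replicate 3 of day 7, and 2 without replicate 2 of day 7 or replicate 1 or 3 of labelled day 3. The day 14 count was 1 without replicate 1 of labelled day 3, 2 without its replicate 2 or replicate 2 of day 14, and 4 without replicate 3 of labelled day 3.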

How the data were processed

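RNA of 24 digit samples was hybridised to Affymetrix exon arrays. The deposited values are linear intensities, 1 per gene-level probe set, made by the authors with RMA in Affymetrix Expression Console on build mm8, per the submitters' processing notes. Of 16661 probe sets, 14939 had 1 gene symbol, 989 several and 733 none in the platform annotation, and the 15928 with a symbol were tested.

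The log2 intensities were fitted with limma 3.58.1 (lmFit and eBayes, R 4.3.3) with a mean for each of 8 groups, and p-values were adjusted over all tested probe sets by Benjamini-Hochberg. The fit had 16 residual degrees of freedom, and the number of arrays limits the precision. Same-numbered arrays were not taken as pairs: 10 of 84 such pairs had deviations correlated over 0.1, and in 1 of 28 pairs of groups all 3 did.

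The members and lists, and the tests on them, were chosen with earlier results of these data known. Values in every array are given for the members with the largest and the smallest difference at B6 day 3 in each role, and for others where a result turns on them. Alternatives were other scalings, an offset, a filter on dim probe sets, fewer arrays, array weights, another variance model, a replicate block, the mean over probe sets and leaving out each array. Promoters are from RefSeq, and 8 members without one in the table are named only.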

Additional observations from a re-analysis of the deposited data

Results flagged for a closer look

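The change between the arrays labelled day 0 and day 3 differed between the strains, by a limma test of the difference itself, in 34 of the 40 genes. The difference, MRL minus B6, was -1.819 in log2 for Bub1 (SE 0.23, adjusted p = 1.76e-06), -1.641 for Prc1 (SE 0.14, adjusted p = 5.78e-09), -1.601 for Aurka (SE 0.20, adjusted p = 1.5e-06) and -1.502 for Chek1 (SE 0.23, adjusted p = 1.71e-05). It uses both MRL groups whose Il1b and Krt31 levels went against their labels, and a mix-up of these labels was not tested.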

How the results depend on the processing

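The counts of genes called stayed within 1.5 times under every alternative for B6 day 3 against day 0 (31 to 40), day 7 (26 to 33) and day 14 (23 to 27), for MRL minus B6 at labelled day 0 (32 to 38) and labelled day 3 (13 to 25), for MRL day 14 against labelled day 0 (20 to 32), for MRL labelled day 3 against B6 day 0 (17 to 26), and for the strain difference in the labelled day 0 to 3 change (32 to 39). Signs were compared only for B6 days 3, 7 and 14 against day 0 and MRL minus B6 at days 7 and 14. In these comparisons no gene's value changed sign with a call. The causes of the moves that follow were not tested.

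Other counts moved. With cyclic loess, median centring and quantile normalization they were 16, 18 and 17 for B6 day 7 minus day 3, 1, 2 and 1 for B6 day 14 minus day 7, 5, 1 and 4 for MRL minus B6 at day 14, 17, 18 and 17 for MRL day 7 minus labelled day 0, and 9, 5 and 6 for MRL labelled day 0 minus B6 day 3. Cyclic loess and quantile normalization gave 10 each for MRL day 14 minus day 7. All of these calls were lower. Cyclic loess gave 8 for MRL day 7 minus labelled day 3 (7 higher and 1 lower), and median centring 10 for MRL day 14 minus labelled day 3. Median centring moved the median of all probe sets by 0.16 for B6 day 3 minus day 0, and the share of higher calls among all calls from 38.4% to 60.4%.

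With array weights the counts were 10 for B6 day 7 minus day 3 (4 higher and 6 lower), 2 for B6 day 14 minus day 7, 23 for MRL day 14 minus day 7, 13 and 19 for MRL minus B6 at days 7 and 14, 1 for the strain difference in the day 7 to 14 change, 15 for MRL day 7 minus labelled day 0, 9 and 17 for MRL days 7 and 14 minus labelled day 3 (7 higher and 2 lower, then 1 higher and 16 lower), and 2 for MRL labelled day 0 minus B6 day 3 (1 higher and 1 lower). With only the compared arrays they were 2 for B6 day 7 minus day 3, 6 for B6 day 14 minus day 3, 3 for MRL day 14 minus labelled day 3, and 0 for MRL day 14 minus day 7, MRL minus B6 at day 14 and MRL labelled day 0 minus B6 day 3. Without the doubted groups, MRL day 14 minus day 7 gave 2 and MRL minus B6 at day 14 gave 5. The dim filter gave 9 for MRL day 14 minus day 7, and an offset of 32 gave 2 for MRL labelled day 0 minus B6 day 3.

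Leaving out each array in turn gave 2 to 10 for B6 day 7 minus day 3, 0 to 1 for B6 day 14 minus day 7, 10 to 21 for B6 day 14 minus day 3, 1 to 5 for MRL day 14 minus day 7, 0 to 3 and 0 to 10 for MRL minus B6 at days 7 and 14, 7 to 13 for MRL labelled day 3 minus labelled day 0, 3 to 7 for MRL day 7 minus labelled day 0, 1 to 4 and 1 to 7 for MRL days 7 and 14 minus labelled day 3, and 1 to 5 for MRL labelled day 0 minus B6 day 3. A replicate block gave 3 for MRL day 14 minus day 7, and kept all other counts within 1.5 times.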
